A study of Mus musculus with 6 samples.

Results

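The 10 genes described here encode elastin, the core protein of elastic fibres, and 9 proteins of the microfibrils and fibre surface on which it is deposited. They were chosen by name: Eln, Fbn1, Fbn2, Fbln1, Fbln2, Fbln5, Mfap2, Mfap4, Mfap5 and Emilin1. Each name matched 1 row of a count table of 54532 genes, and all 10 genes were among the 14814 that passed the low-count filter. RNA was sequenced from cultured mouse aortic endothelial cells (MAEC), primary cells that the design describes as isolated from the aorta of mice lacking the pluripotency factor OCT4 in endothelium. There were 2 groups, female Oct4 KO and male Oct4 KO, with 3 libraries each. Both groups carried the knockout and neither was treated, so the comparison is between the sexes within that genotype. Wild-type cells were not analysed here. The labels give neither the Cre driver nor the age of the mice. They also do not say if replicates are separate mice or cultures, so each p-value reflects spread among libraries that may be technical.

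Elastic fibres give arteries their recoil. Fibrillins assemble into microfibrils, which act as a scaffold for tropoelastin and hold latent TGF-beta in the matrix. Fibulins, microfibril-associated glycoproteins and EMILIN-1 join elastin to this scaffold, and lysyl oxidases crosslink it. In the aorta, smooth muscle cells of the media and adventitial fibroblasts are known as the main makers of these proteins, while endothelial cells contribute to the layer beneath the intima.

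Total counts were 19299742 to 23064738 per library. Pou5f1, the gene of OCT4, had 0 counts in all 6 libraries, which does not check the genotype label without wild-type cells. Xist was counted 21282 to 31900 times in the female and at most 8 times in the male libraries, and Y-linked Ddx3y 0 times in the female and 731 to 1304 times in the male ones, as the sex labels say. The defining endothelial genes were nearly absent: of 15 endothelial markers, 12 were under 1 CPM (counts scaled to a library size adjusted by TMM) in every library, and Cldn5, Emcn, Robo4 and Sox17 had 0 counts in all. Cdh5 had at most 4 counts in any library. Of 11 fibroblast markers, 9 reached at least 10 CPM in all 6 libraries. The fibroblast markers summed to between 15920 and 17820 CPM per female library and between 7556 and 8338 per male library. The largest gaps in CPM were those of Dcn (6375 against 442 CPM) and Lum (1686 against 138). As a fold, the gap of Pi16 (361 against 5.225 CPM) was the widest. Of the 11 genes, 8 were called higher in female cells, where 30.9% of all tested genes were. Col1a2 (1184 against 1615 CPM) and Serpinf1 (600.5 against 989.7) were lower, and Col1a1 was not called. Smooth muscle markers (9 genes, Myocd at 0 in all) summed to between 62.5 and 67.4 CPM per female library and between 160 and 174 per male library. Smtn made up most of these sums (57.5 against 132 CPM), and 5 of the 9 genes were under 1 CPM in every library. Pericyte markers (7 genes, none at 0 in all) summed to 580 to 605 and 757 to 795 CPM, although 5 of the 7 were called higher in female cells, since Rgs5 (0.756 against 256 CPM) and Pdgfrb (315 against 464) were lower. Macrophage markers (6 genes, Ptprc and Adgre1 at 0 in all) summed to 69.6 to 86.0 and 77.3 to 93.6. Mesothelial markers (6 genes, Msln, Upk3b and Lrrn4 at 0) summed to 6.38 to 8.45 and 2.99 to 3.83 CPM, and adipocyte markers (7 genes, Lep and Cidec at 0) to 11.7 to 14.4 and 26.4 to 29.9. Endothelial markers summed to 143 to 172 CPM in female and 256 to 322 in male libraries. Nearly all of this was 2 genes that went opposite ways. Eng was lower in female cells (92.2 against 253 CPM) and Flt1 higher (57.7 against 27.6). Apart from the macrophage sums, which overlapped, these sums differed between the sexes together with the genes below, and their part in each result was not tested. In such bulk samples, fewer cells of a type and less RNA per cell cannot be told apart.

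Female and male cells carried different mixtures of elastic fibre transcripts. All 10 genes differed between the sexes by edgeR's quasi-likelihood test with Benjamini-Hochberg adjustment over all tested genes (adjusted p under 0.05), where 60.7% of all tested genes did. Where the mean level was 5 CPM or more, as for 9 of the 10, that share was 67.6%. Elastin, fibulin-1, fibulin-2, fibulin-5, MAGP-2 (Mfap5) and EMILIN-1 transcripts were lower in female cells, 6 genes where 29.8% of tested genes were lower. Fibrillin-1, fibrillin-2, MAGP-1 (Mfap2) and Mfap4 transcripts were higher, 4 genes where 30.9% were higher. The difference was at least 2-fold for 8 of the 10, against 23.6% of tested genes. For 9 genes every library of one sex lay above every library of the other, as for 67.1% of tested genes, and the exception was Mfap4. The median log2 fold change, female over male, was -0.94 over the 10 genes, also with Fbn2 set to its bound, and -0.01 over all tested genes. The members were chosen with earlier results of these data known, so these comparisons are no independent test of the set. The calls of Fbn1 and Fbln5 were weak: that of Fbn1 depended on how gene length was treated, and that of Fbln5 was lost when most single libraries were left out.

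**Figure D1:**
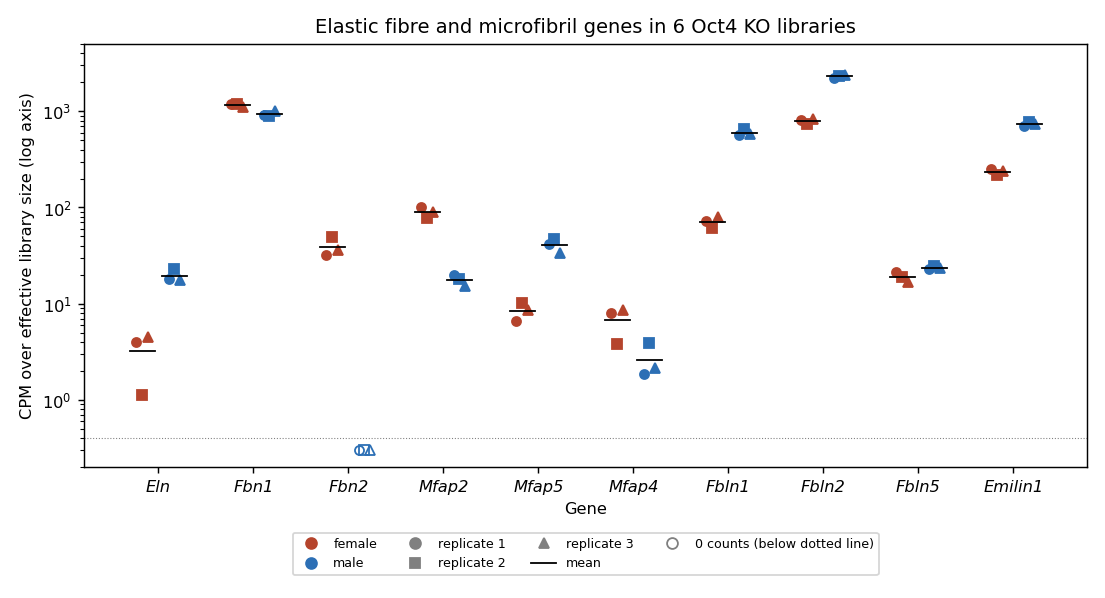
CPM of the 10 genes in each library on a log axis, female in red and male in blue, with the mean as a line and open symbols for 0 counts. The male symbols of Eln, Fbln1, Fbln2, Fbln5, Mfap5 and Emilin1 lie above the female ones, those of Fbn1, Fbn2 and Mfap2 lie below, and the sexes overlap for Mfap4.

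Elastin itself was the least abundant of the 10 transcripts in female cells. Eln (ENSMUSG00000029675, mm10 chromosome 5, 134702593 to 134747323, minus strand) was counted 83, 22 and 89 times in female replicates 1, 2 and 3, and 380, 456 and 426 times in the male replicates. The lowest male library thus lay far above the highest female one. On the CPM scale the levels were 3.22 ± 1.83 in female and 19.5 ± 3.03 in male cells (mean ± SD, n = 3 each), 6.07-fold higher in male cells. The log2 fold change was -2.59 ± 0.30 (estimate ± SE, edgeR adjusted p = 9.7e-07).

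Female replicate 2 stood apart for Eln. Its 22 counts have a 95% Poisson interval of 13.8 to 33.3, while that of the 83 counts in replicate 1 starts at 66.1, intervals that cover counting error only. Against the mean of the other 2 female libraries, Eln in replicate 2 was lower by more than all but 19 of 13218 tested genes with at least 1 CPM in female cells. Without that library the log2 fold change was -2.19 ± 0.19 (edgeR adjusted p = 2.92e-08), and over leaving out each library in turn it ran from -2.91 to -2.19. The smooth muscle marker sum of female replicate 2, at 62.5 CPM, was near the 65.0 and 67.4 of the other female libraries, and all were below the male ones. Most of that sum was Smtn (55.2 CPM in female replicate 2). Of the other called markers, Acta2 (3.28 CPM) and Myl9 (1.59) were lowest and Lmod1 (0.871) highest there among the female libraries. The part of smooth muscle transcripts in the Eln difference was not tested. The 3 protein-coding genes whose pattern over the 6 libraries was most like that of Eln, by the Euclidean distance of centred log2 CPM among 10406 candidates, were Cd24a (distance 0.857), Sec16b (0.914) and Dnmt3l (0.954). Each of these was lowest among the female libraries in replicate 2, Cd24a at 2.97 CPM against 6.67 and 5.37 in the others. That likeness follows from how they were chosen and is no separate support for the Eln values.

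The fibrillins form the backbone of microfibrils, fibrillin-1 throughout life and fibrillin-2 mostly during development. Fbn1 (chromosome 2, 125300594 to 125507993, minus strand) was counted 24833, 23057 and 21995 times in female replicates 1, 2 and 3, and 19266, 17517 and 24230 times in the male replicates. Its CPM was 1199, 1181 and 1115 in female against 914, 883 and 996 in male libraries, so that the sexes did not overlap although they lay close. The log2 fold change was 0.32 ± 0.08 (edgeR adjusted p = 0.00142). Fold changes followed gene length in these libraries, with a slope of log2 CPM on log2 length, against the mean of the libraries, of 0.0688 to 0.18 in female libraries against -0.155 to -0.1 in male ones. With that trend removed, the Fbn1 fold change was -0.15 ± 0.07 (adjusted p = 0.0698), so neither the call nor the direction held. Fbn1 was the longest of the 10 genes, with a deposited length of 12128 bases. The genes most like Fbn1 over the libraries were Gbe1 (distance 0.0501), Lasp1 (0.0729) and Ttc17 (0.0836), each of them above every male library in all 3 female libraries. That order follows from how they were chosen and is no separate support for the Fbn1 difference.

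Fbn2 was read in female cells alone. It lies on chromosome 18 (58008623 to 58209926, minus strand) and was counted 659, 961 and 707 times in female replicates 1, 2 and 3 and never in a male one (0 counts each). The female level was 39.0 ± 9.11 CPM (SD, n = 3). This was 280-fold higher than 3 counts per male library (0.139 CPM on average), the bound set here for a count of 0. The 95% Poisson interval of a 0 count reaches slightly higher, to 3.69 counts. Adjusted p was 3.33e-12 by edgeR. Even so, Fbn2 RNA stayed far below Fbn1 RNA in female cells. Per deposited gene length, Fbn2 stood at 0.0307, 0.0482 and 0.0372 of Fbn1 in the 3 female libraries.

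The pair of small microfibril-associated glycoproteins changed in opposite directions. Both MAGP-1, encoded by Mfap2, and MAGP-2, encoded by Mfap5, bind fibrillins. Mfap2 (chromosome 4, 141010418 to 141015984, plus strand) was counted 2082, 1534 and 1755 times in female replicates 1, 2 and 3, and 423, 357 and 373 times in the male replicates. All female libraries were above all male ones, with means of 89.4 ± 11.0 and 17.8 ± 2.37 CPM (SD, n = 3 each), 5.02-fold higher in female cells (log2 2.33 ± 0.12, edgeR adjusted p = 2.86e-11). Mfap5 (chromosome 6, 122505845 to 122529290, plus strand) was counted 136, 199 and 171 times in female replicates 1, 2 and 3, and 890, 929 and 820 times in the male replicates. Here every male library was above every female one, with means of 8.48 ± 1.82 and 40.9 ± 6.65 CPM, 4.83-fold higher in male cells (log2 -2.27 ± 0.16, adjusted p = 2.79e-09).

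Within a library the ratio of these 2 genes does not depend on scaling between libraries. Per deposited gene length, Mfap2 over Mfap5 was 45.4, 22.9 and 30.4 in female libraries against 1.41, 1.14 and 1.35 in male ones. MAGP-1 RNA thus exceeded MAGP-2 RNA in every female library by far more than in the male ones. The deposited length of Mfap5 (3589 bases) is the union of exons of 7 transcripts, of which the longest coding one measures 1506 bases. With the longest coding transcript as length, male Mfap5 (27.2 RPKM) was above male Mfap2 (16.6), so the order of the pair in male cells depends on the length used and the order in female cells (5.63 against 83.3) does not.

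Mfap4, an integrin-binding protein of elastic fibres, was among the scarcest members. Mfap4 (chromosome 11, 61485431 to 61488900, plus strand) was counted 166, 75 and 169 times in female replicates 1, 2 and 3, and 39, 77 and 52 times in the male replicates. The sexes overlapped, since female replicate 2 (3.84 CPM) lay just under male replicate 2 (3.88 CPM). The means were 6.81 ± 2.58 and 2.62 ± 1.10 CPM (SD, n = 3 each), with a log2 fold change of 1.38 ± 0.33 (edgeR adjusted p = 0.00149). Without female replicate 2 it was 1.67 and without male replicate 2 it was 1.75, and leaving out the other libraries gave 1.19 to 1.25. Its annotated exons overlap those of Mapk7 on the other strand over 89 bases, and Mapk7 had 843 to 1132 counts per library, so a part of the reads of Mfap4 is uncertain.

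**Figure D2:**
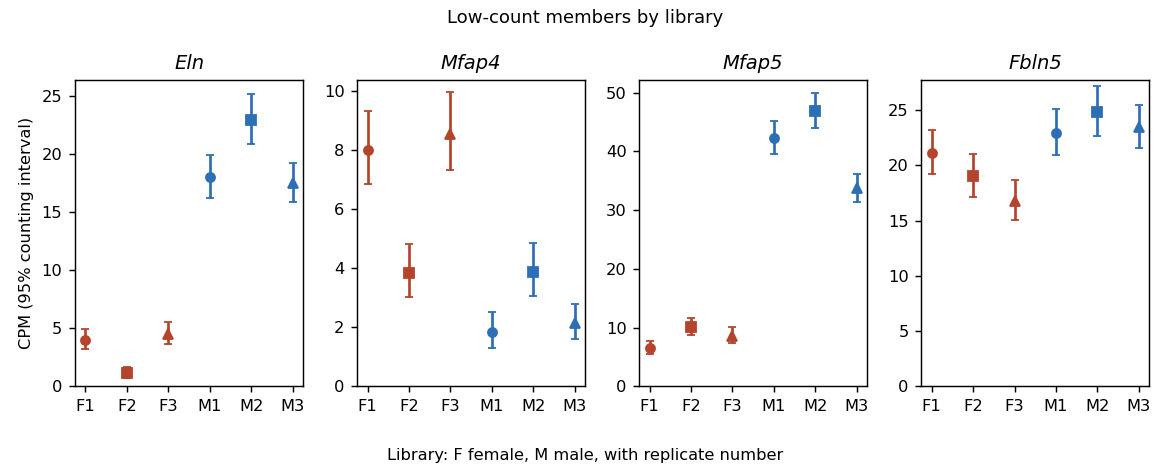
CPM of Eln, Mfap4, Mfap5 and Fbln5 in each library with 95% Poisson counting intervals, female (F) in red and male (M) in blue. Female replicate 2 is the lowest female library for Eln (1.13 CPM) and Mfap4 (3.84 CPM) and the highest for Mfap5 (10.2 CPM).

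Female replicate 2 was the lowest female library for 6 of the 10 members, by much for Eln and Mfap4 and by less for Fbln1, Fbln2, Mfap2 and Emilin1. Relative to the other 2 female libraries on the log2 scale, that library was at -1.87 for Eln and -1.10 for Mfap4. It was at -0.30 for Fbln1, -0.27 for Mfap2, -0.19 for Emilin1 and -0.16 for Fbln2. Fbn2 (0.54) and Mfap5 (0.42) went the other way, and Fbn1 (0.03) and Fbln5 (0.003) were near 0. The library had the steepest length slope, 0.18, whose part in these values was not tested.

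Fibulins are calcium-binding glycoproteins that link elastin, fibrillin, fibronectin and basement membrane proteins. Fbln1 (chromosome 15, 85205949 to 85286535, plus strand) was counted 1499, 1202 and 1555 times in female replicates 1, 2 and 3, and 11910, 12849 and 13974 times in the male replicates. This was the widest gap among the members read in both sexes, with means of 70.9 ± 8.71 and 596 ± 45.4 CPM (SD, n = 3 each), 8.40-fold higher in male cells (log2 -3.07 ± 0.10, edgeR adjusted p = 8.45e-14). Gene counts do not separate the Fbln1 splice forms that differ at their 3' end.

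Per length, Fbln2 was the most abundant member in both sexes (124 RPKM, that is CPM per kilobase of gene, in female and 363 in male cells), although in CPM Fbn1 was above it in every female library. Fbln2 (chromosome 6, 91212455 to 91272540, plus strand) was counted 16611, 14275 and 16503 times in female replicates 1, 2 and 3, and 46780, 46443 and 57553 times in the male replicates. Its means of 790 ± 53.6 and 2309 ± 79.5 CPM (SD, n = 3 each) differed 2.92-fold, higher in male cells (log2 -1.55 ± 0.08, edgeR adjusted p = 2.85e-11). No male library came near a female one. Per length, Fbln1 over Fbln2 was 0.132, 0.123 and 0.137 in female libraries against 0.371, 0.404 and 0.354 in male ones. Fbln1 RNA thus also made up less of this pair in female cells.

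Fibulin-5 binds tropoelastin and cell-surface integrins and is needed for elastic fibre assembly. Fbln5 (chromosome 12, 101746565 to 101819055, minus strand) was counted 438, 371 and 331 times in female replicates 1, 2 and 3, and 484, 493 and 571 times in the male replicates. In CPM the highest female library (21.2) lay below the lowest male one (22.9), and the means were 18.98 ± 2.19 and 23.8 ± 0.984 (SD, n = 3 each). The log2 fold change of -0.32 ± 0.12 passed the threshold narrowly (edgeR adjusted p = 0.0332). Leaving out a single library ended the call in 5 of 6 cases: adjusted p rose to 0.0575 when female replicate 2 was dropped and to 0.136 without replicate 3, and dropping male replicates 1, 2 and 3 gave 0.0539, 0.0655 and 0.0558. With the length trend removed it was -0.59 ± 0.12 (adjusted p = 0.000439), over 1.5 times as large.

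EMILIN-1 lies at the interface of elastin and microfibrils and restrains TGF-beta processing. Emilin1 (chromosome 5, 30913402 to 30921277, plus strand) was counted 5223, 4220 and 4736 times in female replicates 1, 2 and 3, and 14827, 15397 and 17989 times in the male replicates. With means of 236 ± 18.3 and 740 ± 36.6 CPM (SD, n = 3 each), it was 3.13-fold higher in male cells and the sexes lay well apart (log2 -1.65 ± 0.08, edgeR adjusted p = 2.34e-11).

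**Figure D3:**
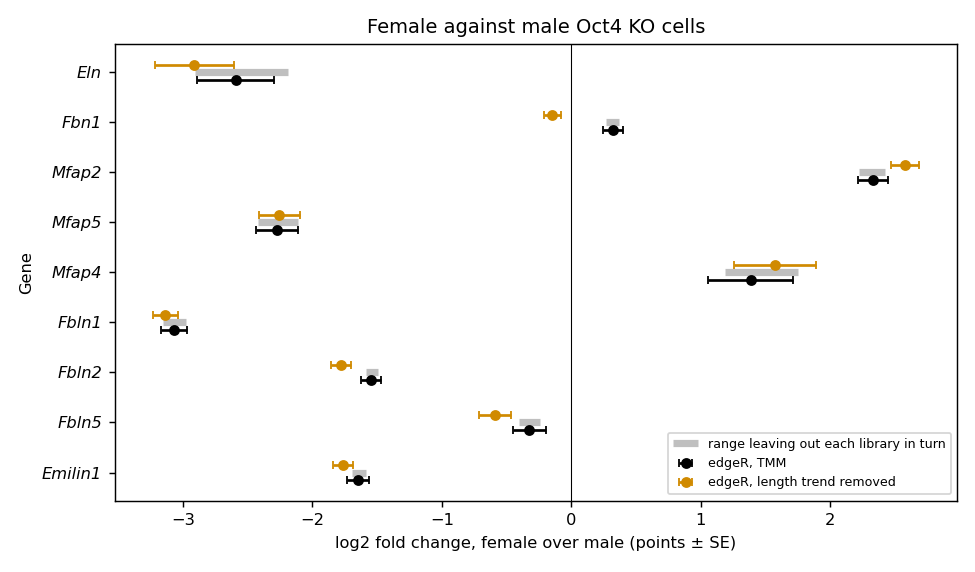
Log2 fold changes, female over male, of the 9 members read in both sexes, with SE, from the edgeR test with TMM scaling (black) and with the length trend removed (orange), and the range over leaving out each library in turn (grey). Fbn1 crosses 0 when the length trend is removed (0.32 to -0.15), and the other 8 keep their side.

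Sequences are shown for 4 genes that differed clearly between the sexes, 3 lower (Fbln1, Fbln2, Emilin1) and 1 higher (Mfap2) in female cells, so that their start regions can be set beside the counts. RefSeq windows of 300 bases, 250 before to 50 after the annotated start (build GRCm38.p6), were examined for 6 of the 10 members. These were Fbn1, Fbln1, Fbln2, Fbln5, Mfap2 and Emilin1. No window was found for Eln, Mfap4 and Mfap5, and the start region of Fbn2 was not examined. Where a gene had 2 windows, the one nearest the 5' end of the gene in the count table is printed. The windows are Fbln1 at chr15:85205699-85205998, Fbln2 at chr6:91212514-91212813, Emilin1 at chr5:30913536-30913835 and Mfap2 at chr4:141010174-141010473, all on the plus strand. Capitals mark matches, on either strand, to 7 short patterns. Among patterns of the core promoter, the TATA box was searched as TATAAA. The letters bound by Sp1-type factors were searched as GGGCGG, and those bound by the factor NF-Y as CCAAT. For AP-1, a factor of immediate early genes, the search used TGANTCA. For blood and endothelial zinc finger factors of the Gata family it used AGATAA. For TEAD factors, partners of YAP, it used GGAATG, and for E-box binding proteins CACGTG. The matches printed do not overlap one another.
Fbln1: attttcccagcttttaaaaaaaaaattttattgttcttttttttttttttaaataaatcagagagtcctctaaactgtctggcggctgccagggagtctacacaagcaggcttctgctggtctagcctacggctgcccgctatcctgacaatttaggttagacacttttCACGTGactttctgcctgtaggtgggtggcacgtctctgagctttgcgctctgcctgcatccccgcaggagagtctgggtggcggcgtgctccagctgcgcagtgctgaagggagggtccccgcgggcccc
Fbln2: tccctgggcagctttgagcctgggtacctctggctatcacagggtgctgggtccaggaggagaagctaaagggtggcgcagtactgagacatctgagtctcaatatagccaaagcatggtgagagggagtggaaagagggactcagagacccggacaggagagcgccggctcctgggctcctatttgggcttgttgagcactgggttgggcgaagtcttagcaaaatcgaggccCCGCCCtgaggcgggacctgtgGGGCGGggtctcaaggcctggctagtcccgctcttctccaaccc
Emilin1: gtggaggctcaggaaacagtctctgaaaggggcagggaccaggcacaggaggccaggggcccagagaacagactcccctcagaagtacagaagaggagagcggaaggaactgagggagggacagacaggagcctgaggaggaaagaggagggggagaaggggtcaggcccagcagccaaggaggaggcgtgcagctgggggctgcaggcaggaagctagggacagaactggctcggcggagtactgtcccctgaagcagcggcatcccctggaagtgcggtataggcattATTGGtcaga
Mfap2: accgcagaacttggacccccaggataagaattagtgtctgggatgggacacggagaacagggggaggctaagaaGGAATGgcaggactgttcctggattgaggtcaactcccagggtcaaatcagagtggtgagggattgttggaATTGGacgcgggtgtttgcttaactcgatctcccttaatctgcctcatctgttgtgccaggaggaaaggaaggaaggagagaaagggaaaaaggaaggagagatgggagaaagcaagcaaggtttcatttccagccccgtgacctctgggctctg

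None of these letter patterns was shared among the printed windows of Fbln1, Fbln2 and Emilin1, 3 of the 6 members lower in female cells. Fbln5, also lower, had GGGCGG or its complement at 2 places in its window nearest the 5' end, which is not printed. The Fbln1 window held CACGTG 81 bases before the start, a pattern found in 7.15% of 32851 windows of this length. The Fbln2 window held GGGCGG or its reverse complement 16 bases before and 7 bases after the start (35.7% of windows hold it), and the Emilin1 window held CCAAT, on the minus strand, 41 bases after it (37.4%). Mfap2 had GGAATG 176 bases (14.7%) and CCAAT, on the minus strand, 105 bases before the start. Fbln1 and Mfap2 each had a second, unprinted window with GGGCGG or its complement at 2 places. The Fbln1 one also held CACGTG and 24 CG pairs. In the Mfap2 one the places were 51 and 7 bases before the start, and it held 22 CG pairs. The TATA box pattern, which 13.6% of windows hold, was in none of the 4, nor were the AP-1 pattern (7.81%) and the Gata family pattern (11.2%). The Fbln1, Fbln2, Emilin1 and Mfap2 windows held 12, 10, 6 and 6 CG pairs, against a median of 7. Such matches describe these letters only, and no binding was measured.

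Levels of different genes can be compared only per length, here as RPKM, the CPM divided by the deposited length in kilobases. In female cells the order was Fbln2 (124 ± 8.42 RPKM), Fbn1 (96.1 ± 3.67), Mfap2 (73.8 ± 9.08), Emilin1 (47.8 ± 3.72) and Fbln1 (16.2 ± 1.99). Then followed Fbn2 (3.72 ± 0.870), Mfap4 (3.54 ± 1.34), Fbln5 (2.75 ± 0.317) and Mfap5 (2.36 ± 0.507), and last Eln (0.397 ± 0.226, SD, n = 3 throughout). The first 5 were separated in every library, Fbn2, Mfap4, Fbln5 and Mfap5 overlapped with their neighbours, and Eln was below all others. With the longest coding transcript as length, Mfap5 (5.63 RPKM) came above Mfap4 (3.95), Fbn2 (3.53) and Fbln5 (3.26), so the order of these 4 depends on the length used. By mean RPKM, Fbln2 ranked 300 and Eln 13255 among the 14814 tested genes in female cells.

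In male cells the order was Fbln2 (363 ± 12.5 RPKM), Emilin1 (150 ± 7.42), Fbln1 (136 ± 10.4), Fbn1 (76.8 ± 4.83), Mfap2 (14.7 ± 1.95), Mfap5 (11.4 ± 1.85), Fbln5 (3.44 ± 0.142), Eln (2.41 ± 0.374) and Mfap4 (1.37 ± 0.572), with Fbn2 at 0 counts. Emilin1 overlapped with Fbln1 and Mfap2 with Mfap5, and the other neighbours were apart. Fbln2 ranked 108 and Eln 9429 among the tested genes. The deposited length of Eln (8098 bases) joins the exons of 5 transcripts, and its 1 coding transcript measures 3853 bases. With that length Eln stood at 0.835 RPKM in female and 5.06 in male cells, still below every other member in female cells but above Fbln5 (4.08) in male cells.

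Summed over the 10 genes, these transcripts took 0.241%, 0.223% and 0.235% of all counts in female libraries against 0.468%, 0.49% and 0.503% in male ones. Of the summed RPKM, Fbn1 made up 26.0% ± 1.86 in female and 10.1% ± 0.742 in male cells, and Mfap2 19.9% ± 1.39 and 1.94% ± 0.307 (SD, n = 3 each). Fbln2 made up 33.5% ± 1.26 and 47.8% ± 0.830, Fbln1 4.37% ± 0.377 and 18.0% ± 0.895, and Emilin1 12.9% ± 0.280 and 19.7% ± 0.315. Eln was under 1% in every library, at 0.0401% to 0.148% in female libraries against 0.283% to 0.363% in male ones. Relative to Fbn1 in the same library, Fbln2 stood at 1.27, 1.18 and 1.43 in female libraries against 4.62, 5.05 and 4.52 in male ones per length. The female mixture was thus led by Fbln2, Fbn1 and Mfap2 and the male mixture by Fbln2, Emilin1 and Fbln1, as shares that move together because they add up to 100.

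**Figure D4:**
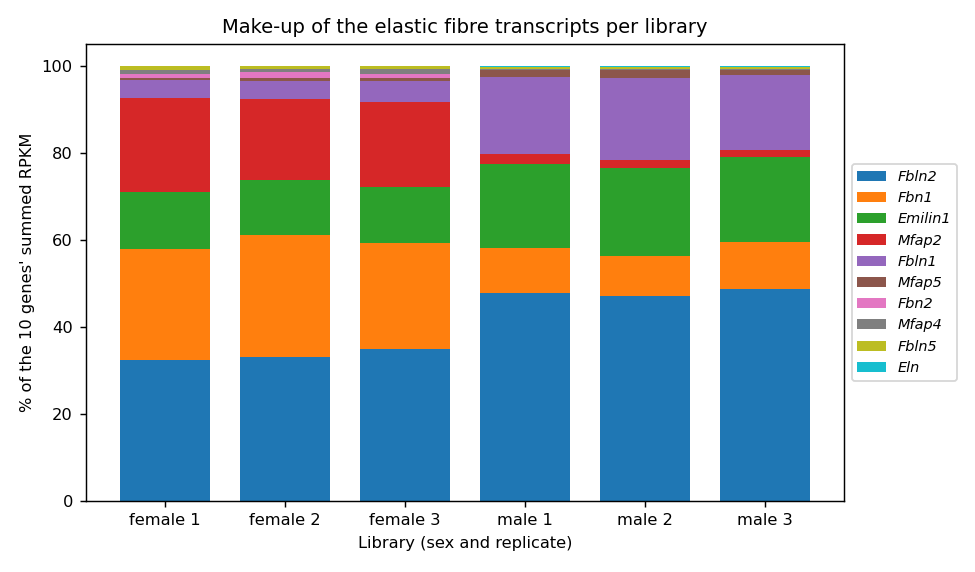
Share of each gene in the summed RPKM of the 10 genes, 1 bar per library. Mfap2 and Fbn1 fill 19.9% and 26.0% of the female bars on average against 1.94% and 10.1% of the male bars, where Fbln1 fills 18.0%.

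The other genes of elastic fibre assembly and turnover were examined through 7 lists of 52 genes, 44 of which passed the low-count filter. Of these, 23 were higher and 13 lower in female cells and 8 were not called, with a median log2 fold change of 0.44. Over all tested genes 30.9% were higher and 29.8% lower, with a median of -0.01, and the counts of each list below stand against these shares. The lists, too, were chosen with earlier results of these data known. Among relatives of the members, 5 of 9 genes were tested, and 3 were higher and 2 lower. Efemp1, the gene of fibulin-3, averaged 608 ± 33.0 CPM in the female against 240 ± 8.22 in the male group (log2 1.34 ± 0.08), and Emilin2 at 394 ± 12.4 and 214 ± 12.3 (0.88 ± 0.08). Efemp2, the gene of fibulin-4, which is needed for elastin crosslinking, went the other way, at 259 ± 23.4 and 472 ± 12.2 CPM (-0.87 ± 0.08). Fbln7 was higher (1.21 ± 0.17) and Hmcn2 lower (-1.62 ± 0.18). The SDs are over n = 3 libraries and each of these calls had an edgeR adjusted p of at most 9.55e-06.

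Crosslinking enzymes were higher or not called. Of 5 lysyl oxidase genes Loxl2 (log2 1.76 ± 0.10), Loxl1 (0.65 ± 0.08) and Loxl3 (0.48 ± 0.08) were higher, while Lox, at 283 ± 22.3 and 266 ± 18.97 CPM, and Loxl4 were not called. Loxl1, which acts on elastin, was the most read of them, at 750 ± 62.0 against 478 ± 32.4 CPM (SD, n = 3). The 4 latent TGF-beta binding proteins are relatives of the fibrillins. Of these Ltbp1 (-0.68 ± 0.08) and Ltbp3 (-0.79 ± 0.07) were lower and Ltbp2 and Ltbp4 not called, although both were called lower with the length trend removed (-0.19 and -0.25, adjusted p = 0.0243 and 0.0177).

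Of 10 genes of microfibril processing and assembly, 8 were tested, and 3 were higher, 3 lower and 2 not called. Adamtsl3 averaged 3.03 ± 1.22 CPM in the female against 77.2 ± 5.38 in the male group (log2 -4.67 ± 0.19, edgeR adjusted p = 1.23e-12, SD over n = 3). Adamts10, whose protein binds fibrillin-1, was lower (-0.68 ± 0.09), as was Adamtsl4 (-1.20 ± 0.21). Furin, the protease that processes profibrillin, was higher (1.24 ± 0.09), as was Adamtsl5 (0.66 ± 0.08). Fn1, the gene of the fibronectin matrix on which microfibrils assemble, was higher (0.39 ± 0.09), but with the length trend removed its value was -0.08 (adjusted p = 0.412) and Adamts6 was called lower (-0.35, 0.0439).

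Of 8 genes of elastin and microfibril receptors, 5 were higher, 1 lower and 2 not called. The integrin subunit gene Itgav, a partner in receptors for fibrillin-1 and fibulin-5, was at 244 ± 18.3 and 111 ± 8.09 CPM (log2 1.14 ± 0.09), and Itgb3 at 137 ± 11.4 and 49.9 ± 4.82 (1.45 ± 0.09). Itgb5 was lower (-1.19 ± 0.08) and Itgb1 higher (0.78 ± 0.08). Glb1, a splice form of which is the elastin-binding protein, was not called (0.18 ± 0.08, edgeR adjusted p = 0.0814). It was called higher without female replicate 2 (0.22, 0.0489) and with the length trend removed (0.26, 0.00749).

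Several genes of elastin-degrading enzymes were much higher in female cells. Of 13 genes of proteases and their inhibitors, 11 were tested, and 8 were higher and 3 lower. Ctsk, the gene of the elastase cathepsin K, averaged 1058 ± 64.5 CPM in the female against 78.5 ± 4.30 in the male group (log2 3.75 ± 0.09, edgeR adjusted p = 2.07e-15). Mmp2, the gene of gelatinase A, was at 3365 ± 30.8 and 587 ± 35.2 CPM (2.52 ± 0.08), and Ctsl at 11970 ± 550 and 1920 ± 66.6 (2.64 ± 0.08). Mmp12, macrophage elastase, was at 51.2 ± 6.01 and 0.940 ± 0.446 CPM (5.75 ± 0.22). Of the 6 macrophage markers, Cd14 (63.9 against 26.5 CPM) and Cd68 (5.78 against 2.41) were also called higher in female cells, Lyz2 (9.89 against 54.6) was lower, Csf1r was not called, and Ptprc and Adgre1 had 0 counts in all 6 libraries. Their part in the Mmp12 difference was not tested. The members that were lower were all inhibitors: Timp3 (-3.43 ± 0.16), Timp1 (-1.86 ± 0.09) and Cst3 (-0.76 ± 0.08). The inhibitor gene Timp2 was higher (1.17 ± 0.07). SDs are over n = 3 libraries, and the enzymes Ctss and Elane were not tested.

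All 3 TGF-beta ligand genes were called, where 60.7% of all tested genes were. Tgfb1 was lower in female cells (222 ± 4.85 against 411 ± 23.9 CPM, log2 -0.89 ± 0.08), Tgfb3 was lower (-0.68 ± 0.09) and Tgfb2 was higher (16.1 ± 1.85 against 6.72 ± 1.19 CPM, 1.25 ± 0.17, edgeR adjusted p = 6.92e-06).

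**Figure D5:**
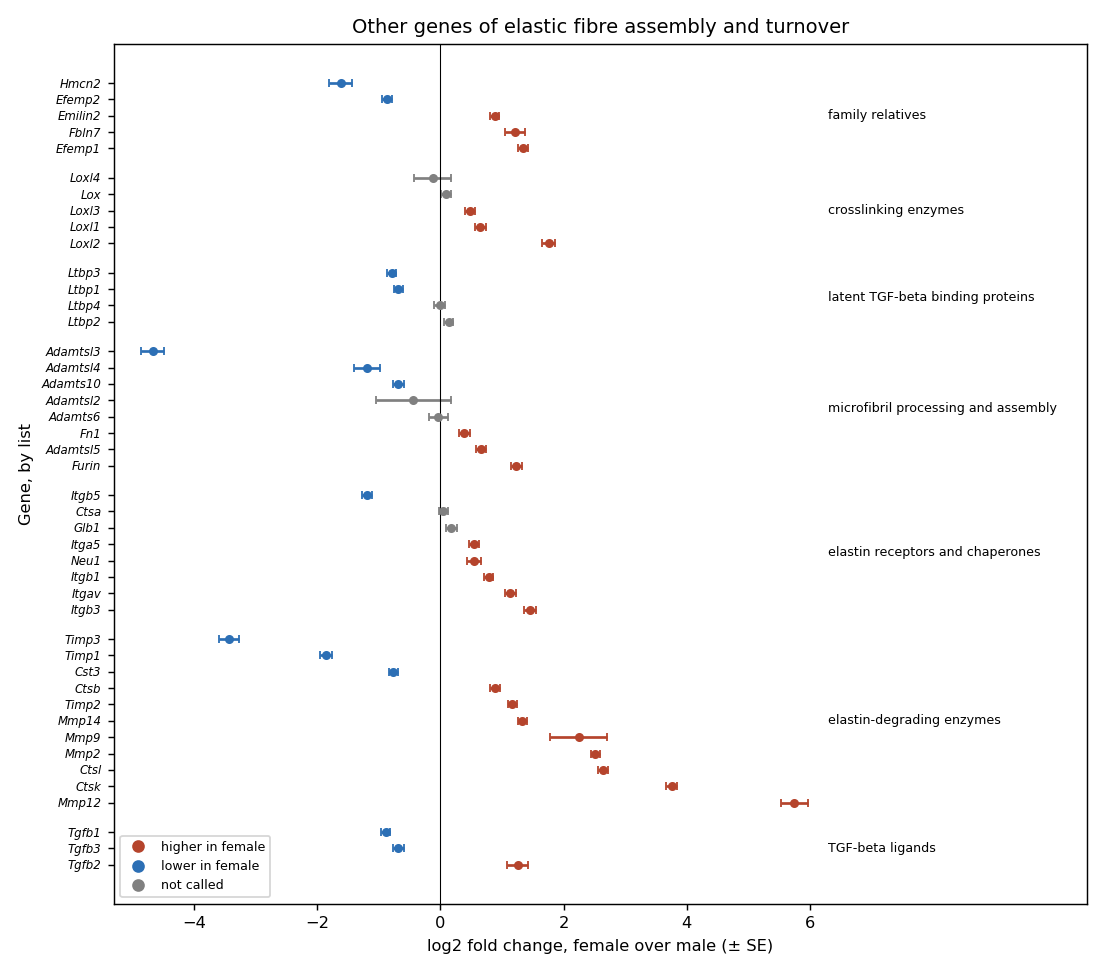
Log2 fold changes, female over male, with SE, of the 44 tested genes of 7 elastic fibre lists, red where higher, blue where lower in female cells and grey where not called. Mmp12 (5.75) and Ctsk (3.75) lie farthest to the right and Adamtsl3 (-4.67) and Timp3 (-3.43) farthest to the left.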

How the data were processed

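RNA of 3 female and 3 male Oct4 KO libraries was compared. The authors deposited raw read counts per gene, made with HISAT2 2.0.5, featureCounts 1.5 and mm10, per the submitters' processing notes. The strand setting and the treatment of multi-mapped reads are not given in the sources used here. Overlapping antisense genes (Gm9913 for Fbn1, Mapk7 for Mfap4) may therefore share reads with members. No column of any other sample was present (0 columns). Positions of 9 members equal those of GENCODE M21, and that of Fbn2 differs.

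Counts were fitted in R 4.3.3 with edgeR 4.0.16 (filterByExpr, TMM, a two-sided quasi-likelihood F-test with no covariate beside sex, Benjamini-Hochberg adjustment). Each SE is the absolute log2 value over the root of its F statistic. CPM uses the effective library size, and RPKM the deposited gene length. The fit was tested on simulated data in which 200 of 14814 genes were changed. It called 87% of the 2-fold and 99% of the 4-fold changes, and 7% of its calls were false. In the real data 60.7% of tested genes were called, so the simulated setting differs from the data. Chi-square per degree of freedom between libraries of a sex was 7.42 to 16, so none was the same library sequenced again. This does not tell separate mice or cultures from repeat preparations of the same RNA.

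Alternatives were DESeq2 1.42.0 and limma-voom 3.58.1, other scalings and filters, a replicate block, a loess correction for gene length in each library, protein-coding genes alone and leaving out each library. The members and lists were chosen with earlier results of these data known. The rule named all members, up to 4 called genes of the smallest adjusted p per list, and the 3 genes nearest to Eln and Fbn1. Fbln7, Lox, Loxl4, Ltbp2, Ltbp4, Adamtsl4, Adamts6, Fn1, Glb1, Timp1, Timp2, Timp3, Cst3, Ctss and Elane were named after their values were seen.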

Additional observations from a re-analysis of the deposited data

How the results depend on the processing

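Of 160 member values under the alternatives, 153 kept their direction and their side of the threshold. Only Fbn1 changed direction, from 0.32 to -0.15 on the log2 scale with the length trend removed; the alternative takes out the part of each library's level that follows gene length, and whether that part is technical was not tested. Fbln5 lost its call with the replicate block (-0.33, adjusted p = 0.0505) and without each of 5 libraries (-0.35 to -0.24), and the cause was not tested. Counts of members called were 3 or 4 higher and 5 or 6 lower. No count of calls moved by over 1.5 times: over all genes it was 8236 to 9320 against 8993, and 8525 with the replicate block. No pairing by replicate number was seen. Deviations of same-numbered libraries correlated at -0.0243, -0.114 and -0.164 across 10812 genes, and those of differently numbered ones at -0.0702 to 0.187. With 3 libraries per sex, each centred on the mean of its sex, these values cannot exclude a weak pairing. Scaling by total counts shifted the median of all genes to -0.13 and the split of calls from 4580 higher and 4413 lower to 3956 and 5294, the length correction made it 3918 and 4879, and the members kept their directions except Fbn1 under the latter. Eln and Mfap4 rest on 22 to 456 and 39 to 169 counts per library, which limits their precision.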
